A study of Sus scrofa with 46 samples.

Results

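The question addressed here is whether an energy-rich oral paste had the same effect on liver gene expression in growth-restricted piglets as in normal-sized (Normal) piglets. It was read from all 46 of the 46 libraries analysed, each placed in a group by the pig number in its label. The groups were 13 piglets with intrauterine growth restriction (IUGR) given the paste, 10 IUGR piglets without it, 12 Normal piglets given the paste and 11 Normal piglets without it. All came from Danish Landrace × Danish Yorkshire sows inseminated by Duroc boars, all had colostrum from their own dam before moving to a nurse sow, and all livers were taken at 3 days of age. IUGR was graded by eye, from a steep forehead and facial signs and not from body weight, so each IUGR piglet is a naturally occurring case and not an experimental model with a known insult. The paste was Piggy Boost, a commercial product of colostrum, fatty acids and vitamins, and the untreated piglets were given nothing in its place. In the study's selection of piglets, treated and untreated ones of both sizes came from the same sows, and livers were collected over several weeks. Sow, sex and week are not in the labels, so whether the 46 libraries keep that matching is not known. Piglets that share a sow or a week therefore enter the tests as separate samples, and a p-value measures the spread between single piglets.

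The liver of a newborn piglet has to leave a placental supply of glucose for fat-rich milk within hours, and it does so by releasing glycogen and raising gluconeogenesis and fatty acid oxidation. Its drug- and vitamin-metabolising enzymes also mature after birth. The liver is a site of blood cell formation before birth as well, and that role fades in the days after it. Growth-restricted piglets are known to take in less colostrum than normal-sized ones.

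The interaction is the log2 effect of the paste in IUGR piglets (treated minus untreated) minus its log2 effect in Normal piglets. A positive value means that the paste went with a higher level, or a smaller decrease, in IUGR than in Normal piglets, and a negative value the opposite. Levels are given as CPM, which is the count of a gene per 1000000 counts of its library after TMM scaling of the library total. A gene was called when its p-value from edgeR's quasi-likelihood test, adjusted by the Benjamini-Hochberg method over all 13780 genes tested, was under 0.05.

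The total count per library was 15062153 to 19340207 in IUGR treated, 15783872 to 17583170 in IUGR untreated, 15036565 to 16762425 in Normal treated and 15571576 to 17963094 in Normal untreated piglets, and 15720 to 16196 of 18440 genes were detected. Hepatocyte markers, which define liver tissue, summed to 123000 to 269000 CPM across the libraries. The libraries of pigs 39 and 46 (IUGR treated) and 38 (IUGR untreated) stood apart, with a median correlation to all other libraries of 0.772 to 0.85, against 0.961 to 0.973 for the other 43, and some values are given again without these 3. It is uncertain whether the headings of the deposited count table match their columns. As deposited, DESeq2 called 238 genes between IUGR untreated and Normal untreated piglets and none of PDK4, CEL, CXCL12, SDF2L1 and ENHO, which had been described as differing between these groups (adjusted p 0.252 to 0.916). When the headings were instead put in alphabetical order, an ordering arrived at by looking at this result, DESeq2 called 47 genes and all 5 of these (adjusted p 0.000151 to 0.0357). Only 14 of 46 libraries would then keep their group. That ordering was used for no comparison, and each result holds only as far as the deposited headings are right.

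No gene had an effect of the paste that differed between IUGR and Normal piglets at the threshold. The count was 0 of 13780 genes (0%) by edgeR, with a smallest adjusted p of 0.153, and 918 genes (6.66%) had an unadjusted p under 0.05, of which 612 (4.44% of all genes) were positive and 306 (2.22%) negative. DESeq2 called 8 genes (5 positive and 3 negative) and limma voom with sample quality weights called 3 (1 positive and 2 negative), and RAB15 and TPD52L1 were in both sets. The median interaction over all genes was 0.034 and its range -3.42 to 4.12. The standard error had a median of 0.262, and the 95% interval lay inside -1 to 1 for 10408 genes (75.5%) but inside -0.5 to 0.5 for only 2582 (18.7%).

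By edgeR on all 46 libraries, few genes were called for the parts of the interaction either. These counts depended on the fit, and leaving out single libraries gave 0 to 6 genes in IUGR and 0 to 35 in Normal piglets. Some alternatives, given further below, called more. In IUGR piglets, 4 genes (0.029%) rose with the paste and none fell, and 626 genes (4.54%) had an unadjusted p under 0.05, 399 of them positive (2.9% of all genes) and 227 negative (1.65%). In Normal piglets no gene passed (0%, smallest adjusted p 0.0683), and 1176 (8.53%) had an unadjusted p under 0.05, 425 of them positive (3.08%) and 751 negative (5.45%). The effect was positive for 57.2% of all genes in IUGR and for 49.1% in Normal piglets. Across all 13780 genes the estimated effects in IUGR and in Normal piglets were not correlated (Pearson's r = 0.036, Spearman's rho = -0.042, across genes, which are not independent replicates, and with no library in both effects). Their standard deviations were 0.261 in IUGR and 0.26 in Normal piglets, beside median standard errors of 0.186 and 0.185. Such error pulls a correlation towards 0, so these values cannot show that the effects are unrelated. The signs were opposite for 7273 genes (52.8%). Among the 918 genes with an unadjusted interaction p under 0.05 they were opposite for 846 (92.2%), which choosing genes by their difference favours, with 557 positive in IUGR and negative in Normal piglets and 289 the reverse. In 573 of the 918 (62.4%, against 58.6% of all genes) the effect was the larger one in Normal piglets.

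**Figure D1:**
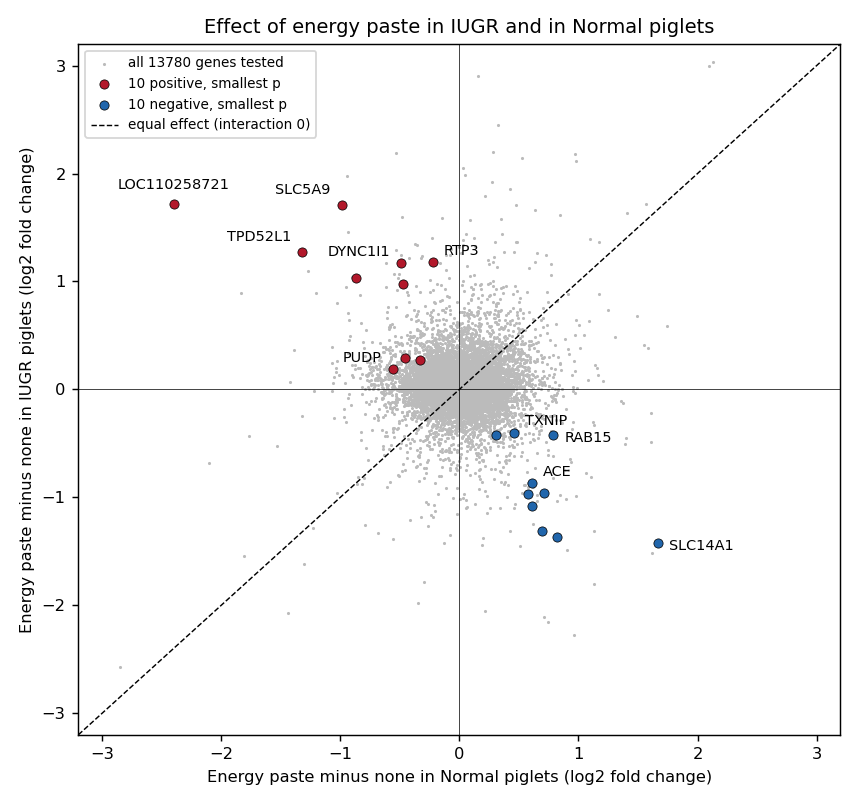
Log2 effect of the energy paste in IUGR piglets (vertical axis, 13 treated minus 10 untreated) against that in Normal piglets (horizontal axis, 12 treated minus 11 untreated), 1 grey point for each of the 13780 genes tested, with the dashed line marking equal effects; 4 genes lie outside the axes. The 10 positive (red) and 10 negative (blue) interactions of smallest p sit at the upper left and lower right, where the effects have opposite signs, and the grey cloud shows no slope (r = 0.036).

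Of the genes with negative values, 3 led the ranking or carried a known metabolic role. RAB15 encodes a small GTPase of the endosomal recycling route and is located on chromosome 7 (89015041 to 89039482, assembly Sscrofa11.1). Its level was 12.3, 21.5 and 41.3 CPM (lowest, median and highest) in IUGR treated and 20.3, 31.3 and 47.3 in IUGR untreated piglets, and 19.8, 34.1 and 57.1 in Normal treated and 14.3, 19.4 and 33.3 in Normal untreated piglets. Only 2 of 13 IUGR treated piglets were above the median of their untreated group, but all 12 Normal treated piglets were above the median of theirs, and treated and untreated ranges overlapped in both sizes. The interaction was -1.21 (standard error 0.26, 95% interval -1.74 to -0.68, adjusted p = 0.153 from edgeR), made up of -0.42 in IUGR and 0.79 in Normal piglets. Its adjusted p was 0.0211 with DESeq2, 0.00221 with voom and 0.00165 with surrogate variables, and leaving out single libraries moved the value between -1.32 and -1.13. LOC110256296, which has no gene name and is on chromosome 13 (73360234 to 73396931), had the smallest p of all, 2.67e-05. It stood at 1.26, 3.22 and 4.62 CPM in IUGR treated and 2.22, 6.18 and 11.4 in IUGR untreated piglets, and at 1.61, 3.95 and 9.01 in Normal treated and 1.12, 2.85 and 5.41 in Normal untreated piglets. None of the 13 IUGR treated piglets was above the median of the IUGR untreated group, and 10 of the 12 Normal treated piglets were above that of the Normal untreated group. The interaction was -1.69 (standard error 0.36, adjusted p = 0.153), and 0.0163 was its adjusted p with DESeq2.

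TXNIP, the thioredoxin-interacting protein, is induced by glucose and restrains glucose uptake, and lies on chromosome 4 (99348589 to 99351760). It ranged over 107, 207 and 258 CPM in IUGR treated and 169, 235 and 456 in IUGR untreated piglets, and over 171, 222 and 307 in Normal treated and 98.4, 164 and 243 in Normal untreated piglets. All 12 Normal treated piglets were above the median of the Normal untreated group, and 3 of 13 IUGR treated piglets were above that of the IUGR untreated group. Its interaction was -0.86 (standard error 0.22, 95% interval -1.31 to -0.41, adjusted p = 0.235), from -0.40 in IUGR and 0.46 in Normal piglets. The highest library was pig 43 of the IUGR untreated group, and without it the interaction was -0.73. ACE, angiotensin-converting enzyme, had a similar crossed pattern at a lower level, with medians of 2.52 and 5.41 CPM in IUGR treated and untreated piglets and 3.22 and 2.09 in Normal treated and untreated piglets (interaction -1.48, standard error 0.37, adjusted p = 0.235).

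Among positive values, TPD52L1, a member of the tumour protein D52 family on chromosome 1 (37667476 to 37761670), had the smallest p. It was at 1.2, 2.7 and 4.16 CPM in IUGR treated and 0.115, 0.833 and 3.02 in IUGR untreated piglets, and at 0.444, 1.1 and 3.06 in Normal treated and 0.812, 2.5 and 8.4 in Normal untreated piglets. All 13 IUGR treated piglets were above the median of their untreated group and only 1 of 12 Normal treated piglets was, although the ranges overlapped in both sizes. The interaction was 2.58 (standard error 0.56, 95% interval 1.46 to 3.71, adjusted p = 0.153 from edgeR), with nearly equal and opposite effects of 1.27 in IUGR and -1.32 in Normal piglets. DESeq2 gave an adjusted p of 0.0149 and voom one of 0.0234.

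RTP3 encodes a receptor transporter protein made in the liver and lies on chromosome 13 (29471568 to 29476277). It was at 28, 40.8 and 77.3 CPM in IUGR treated against 10.4, 18.9 and 29.8 in IUGR untreated piglets, and at 23, 43.7 and 83.6 in Normal treated against 22.7, 42.9 and 112 in Normal untreated piglets. The IUGR untreated group alone was low, and 11 of the 13 IUGR treated piglets were above its highest library. RTP3 was called in IUGR piglets (effect 1.18, standard error 0.24) but not in Normal piglets (-0.22), and the difference of these effects, 1.40 (standard error 0.33, 95% interval 0.75 to 2.06), did not pass in edgeR (adjusted p = 0.196) and passed in DESeq2 (0.0443). DYNC1I1, an intermediate chain of cytoplasmic dynein on chromosome 9 (75414663 to 75760527), also had its lowest median in the IUGR untreated group. Its effect in Normal piglets was more negative than that of RTP3, at -0.49 (standard error 0.27). Only 2 of 12 Normal treated piglets were above the median of their untreated group for DYNC1I1. It was at 1.55, 4.97 and 6.64 CPM in IUGR treated against 1.38, 1.79 and 4.03 in IUGR untreated piglets, and at 1.56, 3.97 and 9.54 in Normal treated against 2.15, 5.66 and 17.1 in Normal untreated piglets (interaction 1.66, standard error 0.39, adjusted p = 0.196 from edgeR and 0.0443 from DESeq2). SLC5A9, a sodium-coupled sugar transporter, was lower still, with medians of 1.4 and 0.254 CPM in IUGR treated and untreated piglets and 0.367 and 0.459 in Normal treated and untreated piglets (interaction 2.69, standard error 0.63, adjusted p = 0.196 from edgeR and 0.0443 from DESeq2).

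PUDP, a phosphatase of pseudouridine monophosphate on the X chromosome (3577487 to 3876142), had the smallest standard error of the genes described so far. It was at 6.96, 9.03 and 12.2 CPM in IUGR treated and 6.84, 7.88 and 10.7 in IUGR untreated piglets, and at 4.72, 6.86 and 12 in Normal treated and 7.01, 10.1 and 14.3 in Normal untreated piglets. Of the 12 Normal treated piglets, 1 was above the median of the Normal untreated group, and that library, pig 31, was also the group's highest. The interaction was 0.75 (standard error 0.17, 95% interval 0.40 to 1.10, adjusted p = 0.196 from edgeR and 0.0443 from DESeq2), with 0.19 in IUGR and -0.56 in Normal piglets. Without pig 31 it was 0.85, at an adjusted p of 0.0365, and this was the only removal of a single library that led to a called gene. When the level of EIF1AY, a gene of the Y chromosome, entered the fit, the value for PUDP was also 0.75.

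**Figure D2:**
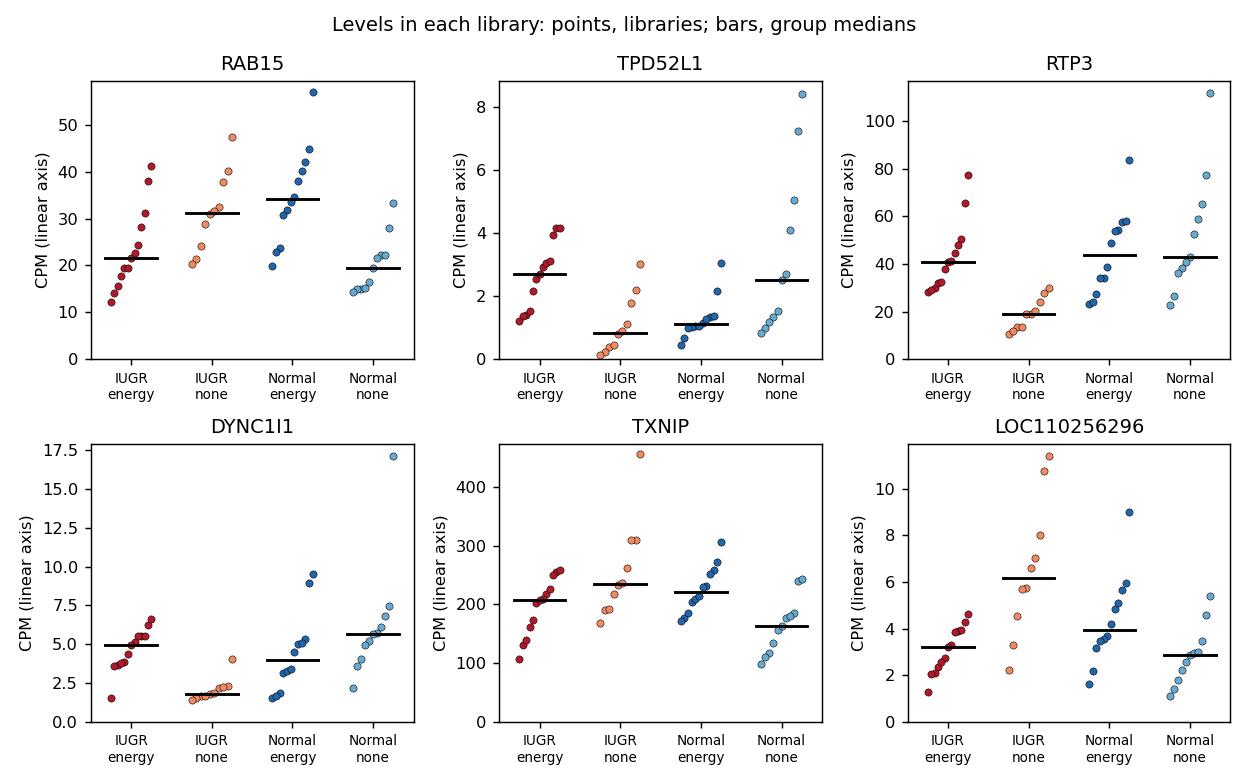
CPM of RAB15, TPD52L1, RTP3, DYNC1I1, TXNIP and LOC110256296 in each of the 46 libraries (points) with the median of each group (bars), on linear axes from 0; "energy" marks piglets given the paste and "none" untreated ones. For RTP3 and DYNC1I1 the IUGR untreated piglets sit low (medians 18.9 and 1.79 CPM), and for RAB15 the medians cross, at 21.5 and 31.3 CPM in IUGR treated and untreated and 34.1 and 19.4 CPM in Normal treated and untreated piglets.

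The rest of the 10 positive and 10 negative interactions of smallest p shared an adjusted p of 0.235. On the positive side, ENOPH1 of the methionine salvage pathway had a value of 0.60 (standard error 0.15), with medians of 16.9 and 13.6 CPM in IUGR treated and untreated piglets and 13 and 16.1 in Normal treated and untreated piglets. NDUFC1, an accessory subunit of respiratory complex I, had one of 0.75 (standard error 0.19), with medians of 14.4 and 11.5 CPM in IUGR treated and untreated and 10.3 and 13.5 in Normal treated and untreated piglets. LOC100620470 was the most abundant of the set, with medians of 182 and 103 CPM in IUGR treated and untreated and 145 and 165 in Normal treated and untreated piglets (interaction 1.45, standard error 0.37). FNDC7 (1.90) and LOC110258721 (4.12, standard error 1.04) were at or under 2.76 CPM in every library. On the negative side, SLC14A1, the urea transporter of red cells, had the lowest value, -3.10 (standard error 0.77), but was at 0 to 3.04 CPM. ENO4, an enolase family gene, had a value of -1.54, ZNF697 one of -0.73, TMEM72 one of -1.67, SCRN1 one of -2.00 and LOC100522455 one of -2.20. In all 20 genes the treated and untreated ranges overlapped within each size. The same held for all 76 genes for which this was examined, and the share over all genes was not computed. All 20 kept their sign under each alternative tried and each removal of 1 library.

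Besides RTP3, the genes that rose with the paste in IUGR piglets were ADH4, LRRC2 and LOC100518109, all at an adjusted p that rounds to 0.05 and lies just under the threshold. Their calls in IUGR piglets do not show a difference from Normal piglets, since none of the 4 interactions passed in edgeR. That of RTP3 passed in DESeq2 (adjusted p = 0.0443). ADH4, an enzyme that oxidises alcohols including retinol, was at 0.867, 9.88 and 51 CPM in IUGR treated against 0.474, 1.87 and 8.58 in IUGR untreated piglets, and at 1.61, 6.05 and 25.9 in Normal treated against 1.72, 7.5 and 20.3 in Normal untreated piglets. Its interaction was 2.74 (standard error 0.78, 95% interval 1.17 to 4.31, adjusted p = 0.303), and 9 of 13 IUGR treated piglets exceeded the highest IUGR untreated one. LOC100518109 had medians of 90.3 and 17.2 CPM in IUGR treated and untreated and 63 and 64 in Normal treated and untreated piglets (interaction 1.94, standard error 0.55, adjusted p = 0.301). LRRC2, a leucine-rich repeat gene, had an effect of 1.70 in IUGR and 0.47 in Normal piglets (interaction 1.23, standard error 0.43, adjusted p = 0.52). It lies on chromosome 13 (29477790 to 29524177) beside RTP3 (29471568 to 29476277), and whether the calls of these neighbours are independent was not tested. These 4 calls fell to 0 with DESeq2's size factors and with EIF1AY as a covariate.

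Genes named in the study's text had interactions whose 95% intervals included 0. PDK4, a kinase that inhibits pyruvate dehydrogenase during fasting, was at 38.6, 137 and 438 CPM in IUGR treated and 35.6, 142 and 373 in IUGR untreated piglets, and at 67.4, 200 and 525 in Normal treated and 32.2, 70.8 and 352 in Normal untreated piglets. Each group spanned more than the difference between any of the medians, and the interaction was -0.72 (standard error 0.59, 95% interval -1.90 to 0.47, adjusted p = 0.919). HAMP encodes hepcidin, the hormone that limits iron release, and its medians were low, with single piglets far above them. It was at 0.127, 0.568 and 177 CPM in IUGR treated and 0.0606, 1.19 and 12.7 in IUGR untreated piglets, and at 0.0589, 0.402 and 273 in Normal treated and 0.246, 0.722 and 3.56 in Normal untreated piglets. The medians were lower with the paste in both sizes while the fitted effects were 2.48 in IUGR and 4.32 in Normal piglets, and the interaction was -1.83 (standard error 1.62, adjusted p = 0.929). That value rested on single piglets and was 0.74 without Normal treated pig 50 and -4.09 without IUGR treated pig 59.

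CEL, the bile salt-activated lipase, had an interaction of -0.97 (standard error 0.75) at 0 to 1.9 CPM, and LRRC30, a leucine-rich repeat gene, one of -0.67 (standard error 0.68). ENHO, which encodes adropin, had one of -0.38 (standard error 0.48), or -0.73 without pigs 38, 39 and 46, and CXCL12, a stromal chemokine, one of -0.13 (95% interval -0.64 to 0.38). SDF2L1, a chaperone cofactor of the endoplasmic reticulum, had one of 0.19 (95% interval -0.59 to 0.98). IGF1, the growth hormone-dependent growth factor, was at 1.69, 7.97 and 29.9 CPM in IUGR treated and 0.816, 7.86 and 12.1 in IUGR untreated piglets, and at 3.86, 8.65 and 44.9 in Normal treated and 3.87, 8.88 and 26.8 in Normal untreated piglets. The 4 medians were alike, and the interaction was 0.03 (95% interval -1.16 to 1.22), an interval that reaches past a doubling in both directions.

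Gene groups were described with 26 lists of pathway genes and 13 of markers for cell types, by the count and the median of their members beside all genes, of which 55% were positive with a median of 0.03. No member of any list passed the threshold for the interaction. Members of a list vary together across piglets, so their number is not a number of independent observations. In bulk tissue, fewer cells of a type and less RNA per cell cannot be told apart.

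**Figure D3:**
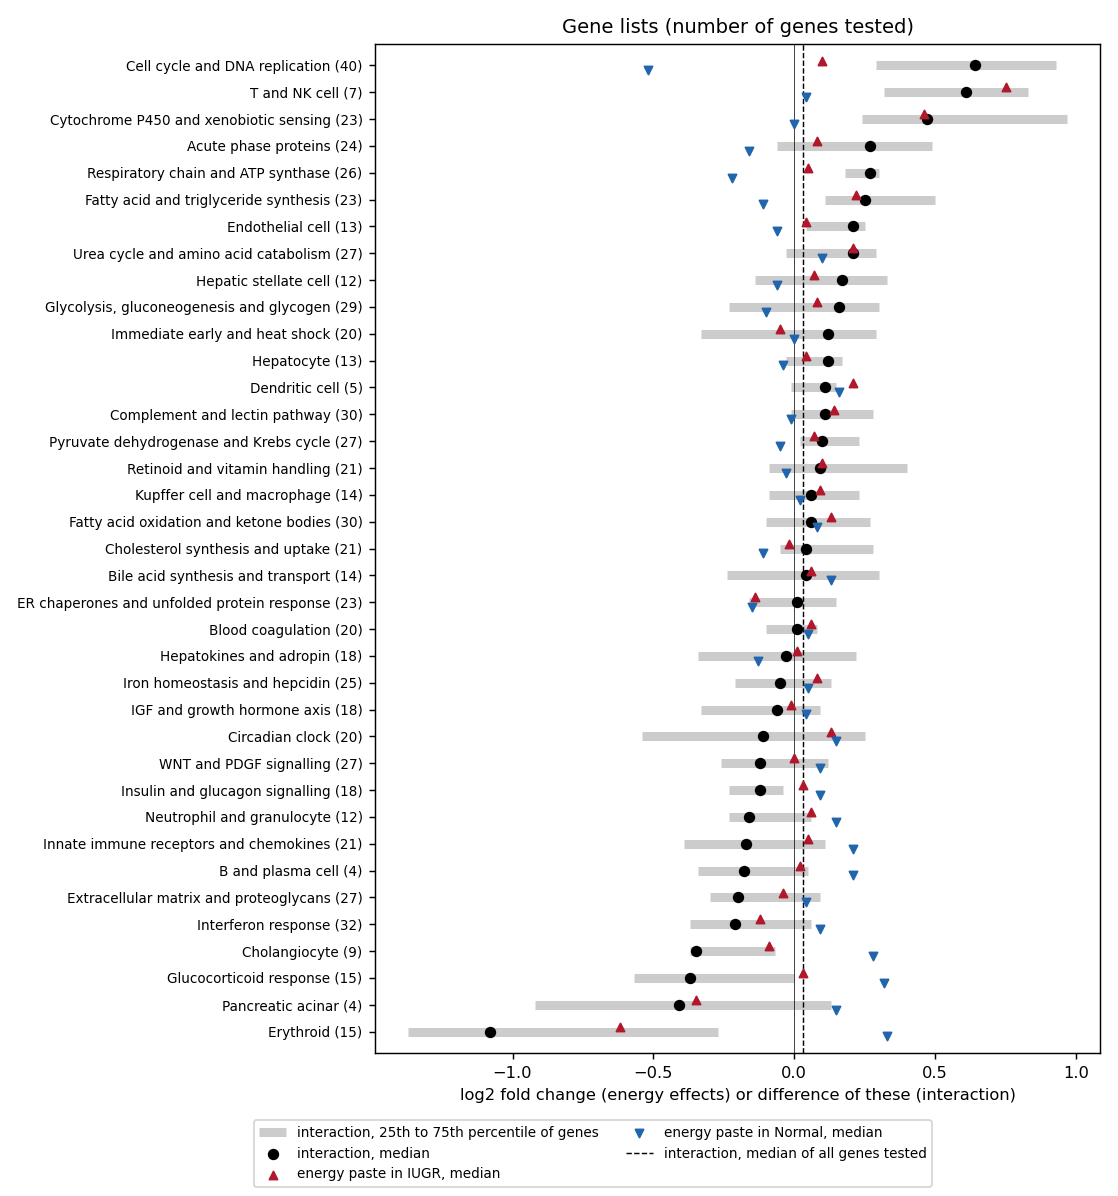
Median interaction of each gene list with at least 4 genes tested (black points, with the 25th to 75th percentile of its genes as grey bars), and the median effect of the paste in IUGR (red, up) and in Normal piglets (blue, down), on the log2 scale. Cell cycle genes had the highest median interaction, 0.64, with the effect in Normal piglets at -0.52, and erythroid genes the lowest, -1.08; the dashed line is the median of all genes, 0.03.

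Cell cycle and DNA replication genes had the highest median interaction of the lists. Of 40 genes tested, 38 had a positive interaction and 23 had an unadjusted p under 0.05, all positive, against 4.44% of all genes. The list's median was 0.64, and nearly all of it lay in Normal piglets, where the median effect of the paste was -0.52 and 24 of 40 genes had an unadjusted p under 0.05 and a negative value, against 5.45% of all genes. In IUGR piglets the median effect was 0.10 and no gene had an unadjusted p under 0.05. TYMS, thymidylate synthase, led the list. It was at 18, 34 and 75.5 CPM in IUGR treated and 23, 32.7 and 62.8 in IUGR untreated piglets, and at 25.8, 33.5 and 58.8 in Normal treated and 22.1, 67.4 and 146 in Normal untreated piglets. None of the 12 Normal treated piglets was above the median of the Normal untreated group, whereas 7 of the 13 IUGR treated piglets were above that of the IUGR untreated group (interaction 1.29, standard error 0.34, adjusted p = 0.235). CHAF1B and CHAF1A, subunits of the factor that loads histones behind the replication fork, had interactions of 1.11 and 0.99 (standard errors 0.30 and 0.27, adjusted p = 0.257 for each).

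Summed over the list, cell cycle genes were at 753, 1340 and 2120 CPM in IUGR treated, 986, 1400 and 1770 in IUGR untreated, 1190, 1440 and 2070 in Normal treated and 814, 1970 and 2970 in Normal untreated piglets. The Normal untreated group was the one that differed from the others, and it was also the widest. In 5 of its 11 piglets (pigs 3, 20, 30, 34 and 55) the sum, 2210 to 2970 CPM, was above the highest of all other groups, and the other 6 were at 814 to 1970 CPM. Pigs 3, 20, 30 and 34 also lay at an end of the second principal component of all genes tested (6.44% of the variance). They were at 28, 33.3, 27 and 28.6, against 23.1 for the highest of the other groups (Normal treated pig 22), but pig 55 was at -3.5. Whether the list differed apart from this component was not tested. The median was 0.58 without pigs 38, 39 and 46, and between 0.57 and 0.72 without each single library. It was 0.02, with 21 positive genes, when 7 surrogate variables estimated from the data were added as covariates. Over all genes the median in that fit was -0.013. The share of all genes positive in that fit was not computed, for this list or those below.

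Cytochrome P450 and xenobiotic-sensing genes also had a positive median, but with its parts the other way round. Of 23 genes tested 21 were positive, 7 of them with an unadjusted p under 0.05 (4.44% of all genes). The median of 0.47 came from an effect of 0.46 in IUGR piglets (10 genes positive with an unadjusted p under 0.05, against 2.9% of all genes) and 0.00 in Normal piglets (no such gene). The summed level was 6090, 8560 and 10900 CPM in IUGR treated against 4230, 6720 and 8130 in IUGR untreated piglets, and 5360, 7860 and 10100 in Normal treated against 5520, 8670 and 10000 in Normal untreated piglets. The IUGR untreated group was the low one. CYP1A2, which metabolises caffeine and aromatic amines, was at 14.2, 28.5 and 54.8 CPM in IUGR treated against 3.89, 9.09 and 29.3 in IUGR untreated piglets, and at 7.82, 21.3 and 61.1 in Normal treated against 7.61, 19.3 and 61.1 in Normal untreated piglets. All 13 IUGR treated piglets were above the median of their untreated group, and 7 of 12 Normal treated piglets were above that of theirs (interaction 1.63, standard error 0.49, adjusted p = 0.332). NR1I3, the constitutive androstane receptor that senses drugs and bilirubin, had an interaction of 1.26 (standard error 0.44), and CYP2D25, a vitamin D hydroxylase of the pig, one of 1.06 (standard error 0.36). P450 genes form families of similar sequence, and the sources used here do not say how reads shared between them were counted, which also holds for MT1A and HP. The list's median was 0.36 with surrogate variables and 0.44 without pigs 38, 39 and 46.

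**Figure D4:**
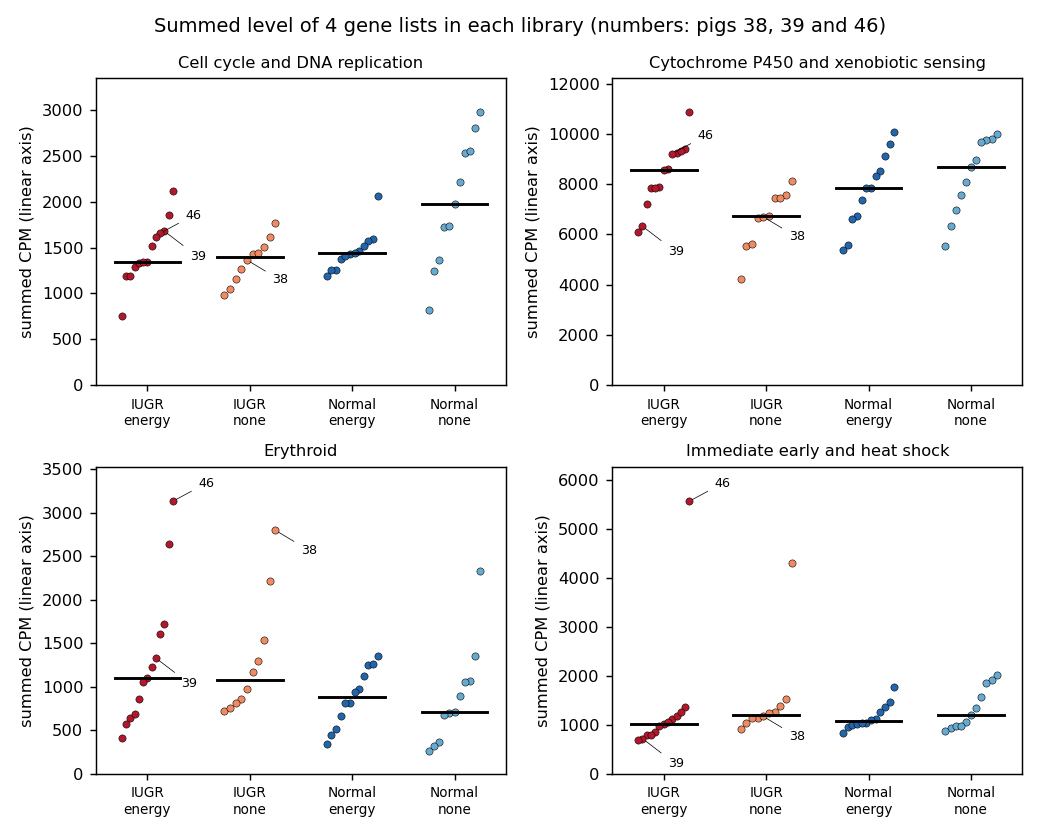
Summed CPM of 4 gene lists in each of the 46 libraries (points) with group medians (bars), on linear axes from 0, and with pigs 38, 39 and 46 numbered. Cell cycle genes reached 2210 to 2970 CPM in 5 Normal untreated piglets, above all other groups, P450 genes were lowest in IUGR untreated piglets (median 6720 CPM), and single libraries were high for erythroid and immediate early genes.

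In energy metabolism, respiratory chain and ATP synthase genes stood out by their sign. All 26 had a positive interaction and 2 an unadjusted p under 0.05 (4.44% of all genes), with a median of 0.27 from 0.05 in IUGR and -0.22 in Normal piglets. NDUFS3, a core subunit of complex I, was at 52.5, 67.6 and 109 CPM in IUGR treated and 37.8, 64.4 and 73.6 in IUGR untreated piglets, and at 42.9, 51.2 and 74.9 in Normal treated and 45.2, 68.5 and 82.7 in Normal untreated piglets. Normal treated piglets were the low group, with 1 of 12 above the median of Normal untreated piglets (interaction 0.58, standard error 0.18, adjusted p = 0.387). NDUFB10 and NDUFA9, also of complex I, had interactions of 0.42 and 0.29 (standard errors 0.18 and 0.15). The count under an unadjusted p of 0.05 was 1 to 4 without single libraries, where that over all genes was 677 to 1270 in either direction. It was 7 without pigs 38, 39 and 46, against 6.97% of all genes in that fit. The list's median was 0.24 without these 3, and 0.03 with surrogate variables, where 17 of 26 genes were positive.

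Genes of fatty acid and triglyceride synthesis had 21 of 23 positive values, 3 with an unadjusted p under 0.05 (4.44% of all genes), and a median of 0.25. Without single libraries the count was 2 to 7, with 7 without IUGR untreated pig 38, and the median 0.17 to 0.42, with 0.42 without Normal treated pig 22. The count over all genes in either direction also moved, over 677 to 1270 against 918 with all libraries. Whether the list's count moved apart from it was not tested. SREBF1, the transcription factor of lipogenesis, was at 28.3, 71.6 and 172 CPM in IUGR treated and 17.1, 55.6 and 82.2 in IUGR untreated piglets, and at 16.5, 44.2 and 99.9 in Normal treated and 17.1, 72.7 and 132 in Normal untreated piglets (interaction 1.14, standard error 0.43, adjusted p = 0.59). DGAT2, which makes triglycerides, had an interaction of 0.65 (standard error 0.26) and AGPAT2, an enzyme of phosphatidic acid synthesis, one of 0.48 (standard error 0.23). Pig 46 was the highest IUGR treated library for both, and without it the values were 0.48 and 0.31. The median of the list was 0.08 with surrogate variables.

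The pathways that burn fat and pyruvate showed less. Of 30 fatty acid oxidation and ketone body genes 17 were positive, with a median of 0.06 that was -0.02 without pig 5 and -0.04 with surrogate variables. ECI2, an isomerase of unsaturated fatty acid oxidation, had a value of 0.48 (standard error 0.22), and PLIN2, which coats lipid droplets, one of -1.08 (standard error 0.52). PLIN2 was at 24.2, 72.9 and 272 CPM in IUGR treated and 73.5, 114 and 264 in IUGR untreated piglets, and at 29.7, 83.3 and 378 in Normal treated and 37.9, 82.5 and 206 in Normal untreated piglets, with wide overlap. Of 27 pyruvate dehydrogenase and Krebs cycle genes 21 were positive (median 0.10). The median was 0.05 without IUGR untreated pig 5 and 0.02, with 16 positive, with surrogate variables. Among the positive genes was PDK2, a second pyruvate dehydrogenase kinase (0.70, standard error 0.30, or 0.46 without pigs 38, 39 and 46). Of 29 glycolysis, gluconeogenesis and glycogen genes 18 were positive (median 0.16), but the median was 0.03 without pigs 38, 39 and 46 and also without pig 46 alone. GAPDH, a glycolytic enzyme, had a value of 0.53 (standard error 0.22). Of 27 urea cycle and amino acid genes 18 were positive (median 0.21), but the median was 0.03 without Normal untreated pig 3. With surrogate variables it was -0.08, with 4 of 27 positive, beside a median of -0.013 over all genes in that fit. GOT1, an aspartate aminotransferase, had a value of 0.45 (standard error 0.17). Insulin and glucagon signalling had a median of -0.12 with TXNIP as its leading gene. The medians of the IGF and growth hormone axis (-0.06), bile acid genes (0.04) and cholesterol genes (0.04) were near 0, and leaving out single libraries moved them over -0.17 to -0.03, -0.03 to 0.07 and -0.11 to 0.15. With surrogate variables 1 of 21 cholesterol genes was positive, with a median of -0.14.

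Some markers of other cell types had medians away from that of all genes. Of 15 erythroid genes tested, 4 were positive and 5 had an unadjusted p under 0.05, all negative, against 2.22% of all genes, and the median of -1.08 came from -0.62 in IUGR and 0.33 in Normal piglets. The 5 were genes of the red cell membrane and its skeleton, among them ANK1 (-1.44, standard error 0.50) and SLC4A1 (-1.69, standard error 0.68). SLC4A1, the anion exchanger, was at 2.15, 13.9 and 29.9 CPM in IUGR treated and 6.59, 21.9 and 109 in IUGR untreated piglets, and at 0.819, 9 and 40 in Normal treated and 1.47, 9.34 and 21.2 in Normal untreated piglets. The highest IUGR untreated library was pig 38, and HBB, the beta globin gene, had an interaction of 0.14 (standard error 0.51). Without IUGR untreated pig 21 the list's median was -0.72 with 2 genes under an unadjusted p of 0.05. Over all genes that count, in either direction, was 677 to 1270 without single libraries, against 918 with all libraries. Whether the list's count moved apart from it was not tested. Without pigs 38, 39 and 46 the list's median was -0.84 with 1 gene under an unadjusted p of 0.05, against 5.12% of all genes negative in that fit. With surrogate variables the median was -0.11. SLC14A1, named among the negative genes, is also a red cell gene, and the part of the erythroid difference in its value was not tested.

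Of 7 T and NK cell genes tested (of 15 listed) 6 were positive, with a median of 0.61 that was 0.37 without IUGR treated pig 53. CD3E, a chain of the T cell receptor complex, was at 0.124, 0.947 and 2.87 CPM in IUGR treated against 0.247, 0.436 and 0.745 in IUGR untreated piglets, and at 0.322, 0.533 and 0.954 in Normal treated against 0.328, 0.492 and 1.15 in Normal untreated piglets (interaction 1.32, standard error 0.43, adjusted p = 0.407). In IUGR treated piglets 10 of 13 were above the highest IUGR untreated piglet. LCK, a T cell kinase, had an interaction of 0.72 (standard error 0.33), and 0.52 without pig 39. Cholangiocyte genes had a median of -0.35, 2 of 9 positive, with PKHD1, a protein of bile duct cilia (-0.68, standard error 0.27), and KRT19, a duct keratin (-0.82, standard error 0.39). Kupffer cell, endothelial, stellate and hepatocyte markers had medians of 0.06, 0.21, 0.17 and 0.12, which were -0.06, 0.05, -0.03 and 0.09 without pigs 38, 39 and 46. The stellate median was also negative, -0.04, without pig 46 alone. The part of these cell type differences in the pathway lists was not tested.

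The interferon and immediate early lists depended on few libraries. Interferon response genes had a median of -0.21 (10 of 32 positive), which was 0.60 with voom, 0.02 with surrogate variables and 0.31 without IUGR untreated pig 43. Immediate early and heat shock genes had a median of 0.12, which was -0.81 without pigs 38, 39 and 46, with 1 of 20 positive (48.8% of all genes in that fit) and 9 negative under an unadjusted p of 0.05 (5.12% of all genes). Without pig 43 alone it was 0.54, and without pig 46 alone -0.71, since their summed levels of 4310 and 5570 CPM were far above the medians of 1200 CPM in IUGR untreated and 1020 CPM in IUGR treated piglets. MYC, a growth-promoting transcription factor, was at 8.83, 17.4 and 129 CPM in IUGR treated and 20.6, 40.2 and 208 in IUGR untreated piglets, and at 10.3, 19.6 and 85 in Normal treated and 9.87, 13.9 and 60.1 in Normal untreated piglets. In IUGR treated piglets 1 of 13 was above the median of the untreated group (interaction -1.53, standard error 0.59, adjusted p = 0.60). KLF6, a zinc finger factor, had a value of -0.58 and BTG2, a growth arrest gene, one of -0.88, and without pig 43 these were -0.27 and -0.09.

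Of 21 innate immune receptor and chemokine genes 6 were positive, with a median of -0.17 that was -0.25 to -0.12 without single libraries. CXCL8, the neutrophil chemokine, had an interaction of -2.39 (standard error 0.70, adjusted p = 0.303) at 0 to 6.09 CPM, and of -1.52 without pig 43. CCL5, a T cell chemokine, had one of 1.21 (standard error 0.42), or 0.78 without pigs 38, 39 and 46, and CXCL14 one of 1.03 (standard error 0.41). Glucocorticoid response genes had a median of -0.37 (4 of 15 positive), from 0.03 in IUGR and 0.32 in Normal piglets, and the median was -0.06 without pig 43 alone, -0.17 with voom and -0.23 with surrogate variables. KLF9, a direct target of the glucocorticoid receptor, was at 3.92, 12.2 and 19.4 CPM in IUGR treated and 4.45, 9.4 and 28.6 in IUGR untreated piglets, and at 7.43, 13.1 and 27.9 in Normal treated and 2.41, 6.25 and 16.8 in Normal untreated piglets. All 12 Normal treated piglets were above the median of the Normal untreated group (interaction -0.90, standard error 0.42, adjusted p = 0.733). MT1A, a metallothionein, had a value of -2.90 with a standard error of 1.39 and ranged over 0.395 to 322 CPM. It was -1.77 without IUGR untreated pig 10 and -4.25 without pigs 38, 39 and 46. Extracellular matrix genes had a median of -0.20 (9 of 27 positive), and 0.15 with surrogate variables. LAMB1, a laminin chain, was at 54.1, 73.9 and 97.3 CPM in IUGR treated and 74.9, 91.2 and 124 in IUGR untreated piglets, and at 53.9, 101 and 137 in Normal treated and 58.8, 89.5 and 111 in Normal untreated piglets. In IUGR treated piglets 1 of 13 was above the median of the untreated group, and in Normal treated piglets 9 of 12 were (interaction -0.59, standard error 0.17, adjusted p = 0.303). VCAN, a large proteoglycan, had a value of -0.84 and FBN1, the microfibril protein, one of -0.41.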

How the data were processed

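Liver RNA of 46 piglets was sequenced. The authors mapped clean paired-end reads to Sscrofa11.1 with Bowtie2 and deposited estimated counts per gene, without scaling for depth or length; 85.9% of the values are whole numbers. The sources used here do not give the counting program. The submitters' processing notes name DESeq2. Counts were rounded to whole numbers. Columns were assigned by pig number and groups by the sample labels, and 0 columns had no sample. The total count of 15036565 to 19340207 limits only counting error, not the spread between piglets. No 2 libraries were alike (lowest chi-square per gene 25.5).

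Tests were run in R 4.3.3 with edgeR 4.0.16, using TMM, filterByExpr (minimum count 10, 13780 genes kept), robust dispersion, the quasi-likelihood F test and 1 mean for each of 4 groups, two-sided. Standard errors were derived from the F statistic. Code was tested on simulated data. Alternatives were DESeq2 1.42.0, limma voom (limma 3.58.1), DESeq2's size factors, no filter, EIF1AY or surrogate variables (sva 3.50.0) as covariates, and leaving out libraries. Coordinates are those of RefSeq on Sscrofa11.1. The members, gene lists and alternatives were chosen with earlier results of these data known. Genes named are the 10 positive and 10 negative interactions of smallest p, genes called for the paste in either size, genes in the study's text and, for some of the lists, members among the 3 of smallest p. Which list members are described was chosen after their values were seen, as was HBB. An item covered by this rule is not reported here. Symbols carried by more than 1 gene count once per gene. No sequence is shown because none was in the sources used here.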

Additional observations from a re-analysis of the deposited data

Results flagged for a closer look

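Single piglets stood far from the rest of their group in 22 of 113 sets of values examined in IUGR untreated piglets, the 1 group small enough (10 piglets) for this check. The check marks about 1 in 20 groups by chance only where values are normally distributed. It was applied to CPM on the linear scale, so the number expected by chance is not known. The sets share piglets and are not independent. Pig 43 was highest for LOC110258721 at 1.22 CPM (next 0.615), TXNIP at 456 (next 310), CXCL8 at 6.09 (next 1.62), MYC at 208 (next 83.8), KLF6 at 119 (next 42) and BTG2 at 1050 (next 149). Its summed immediate early and heat shock genes were at 4310 CPM (next 1520) and its circadian clock genes at 1220 (next 801). Pig 38, which stood apart over all genes, was highest for DGAT2 at 91.6 CPM (next 56.4), AGPAT2 at 89.2 (next 58.7), INHBC at 47.9 (next 29.5) and summed innate immune receptors and chemokines at 1310 (next 988).

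Pig 27 was highest for DYNC1I1 at 4.03 CPM (next 2.33), FNDC7 at 1.62 (next 0.795) and GOT1 at 123 (next 90.9). Pig 10 was highest for ADH4 at 8.58 CPM (next 4.38), MT1A at 297 (next 105) and summed dendritic cell genes at 34.2 (next 11.6). Pig 36 was highest for TYMS at 62.8 CPM (next 40.6) and C2 at 338 (next 172), and pig 21 for SLC14A1 at 3.04 (next 1.46). Pig 5 was lowest for RBP4 at 1580 CPM (next 2390). By edgeR no gene passed the test of a difference between the effects of the paste in IUGR and in Normal piglets.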

How the results depend on the processing

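For the interaction, the number of genes called was 0 with edgeR (918 at an unadjusted p under 0.05), 0 with DESeq2's size factors (919) and 0 with EIF1AY as a covariate (963). It was 8 with DESeq2 (1129), 3 with voom (2105), 1 with no filter on low counts (1243), 1 with surrogate variables (1258) and 1 without pigs 38, 39 and 46 (1666), and 0 to 1 without each single library. Positive values made up 66.7% of the genes under an unadjusted p of 0.05 with edgeR, 61.5% with DESeq2, 55.9% with voom, 59.1% with no filter, 57.6% without pigs 38, 39 and 46 and 40.3% with surrogate variables, so this split depends on the fit. The median over all genes moved between -0.013 and 0.034.

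For the paste in IUGR piglets, 4 genes were called, against 23 with DESeq2, 120 with voom, 0 with DESeq2's size factors, 0 with EIF1AY, 156 with surrogate variables and 9 without pigs 38, 39 and 46, and 0 to 6 without each single library. The count moved by over 1.5 times for 34 of the 46 libraries, all except pigs 18, 29, 39 and 58 (IUGR treated), 1, 7, 31, 64, 66 and 68 (Normal treated) and 9 and 52 (Normal untreated). In Normal piglets, 0 were called, against 31 with DESeq2, 783 with voom, 1 with surrogate variables, 105 without pigs 38, 39 and 46 and 4 in a fit of only the 2 groups, and 0 to 35 without single libraries. It was 1, 35 and 2 without Normal treated pigs 7, 31 and 50, and 3, 29 and 1 without Normal untreated pigs 9, 42 and 52.

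Of 76 genes under 7 alternatives and the removal of single libraries, values changed sign for HAMP (0.21 with voom, and -4.09 to 0.74 without single libraries), LRRC30 (0.10 with surrogate variables), CXCL12 (0.32 with surrogate variables), SDF2L1 (-0.01 with voom, -0.11 with surrogate variables) and IGF1 (0 with voom, -0.03 with EIF1AY, -0.30 to 0.37 without single libraries). CEL did not pass the filter on low counts in 5 of the 46 removals, and was -1.12 to -0.64 in the other 41. The cause was not tested. No paired analysis was possible because each pig number occurs once and the labels do not give the litter.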

Other observations

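Of 21 genes of retinoid and vitamin handling, 14 were positive and 3 had an unadjusted p under 0.05, all positive, against 4.44% of all genes, with a median of 0.09 that was 0.02 without Normal untreated pig 20. They were ADH4, TCN2, the plasma carrier of cobalamin (0.58, standard error 0.23, or 0.32 without pigs 38, 39 and 46), and RBP4, the plasma carrier of retinol (0.47, standard error 0.18). RBP4 was at 2140, 2990 and 4810 CPM (lowest, median and highest) in IUGR treated and 1580, 2540 and 3280 in IUGR untreated piglets, and at 1800, 2530 and 3610 in Normal treated and 2060, 2780 and 4520 in Normal untreated piglets. In iron handling, 12 of 25 genes were positive (median -0.05, and 0.02 without pig 38), with 3 positive under an unadjusted p of 0.05 (4.44% of all genes). That count was 1 without IUGR untreated pig 5 and 0 with surrogate variables, where 507 of all 13780 genes were positive under that p. Without single libraries, 677 to 1270 of all genes were under that p in either direction. Whether the list's count moved apart from this was not tested. The 3 found with all libraries were HP and HPX, which bind free haemoglobin and haem (0.62 and 0.50, standard errors 0.25 and 0.24), and HFE, the haemochromatosis gene (0.42, standard error 0.18).

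Acute phase genes had a median of 0.27 (16 of 24 positive), which was 0.18 with surrogate variables. SERPINA1, alpha-1-antitrypsin, went the other way with -0.75 (standard error 0.31), at 2290, 4440 and 9530 CPM in IUGR treated and 4150, 7100 and 10500 in IUGR untreated piglets, and at 2300, 3990 and 7830 in Normal treated and 2390, 3710 and 7820 in Normal untreated piglets. Complement genes had a median of 0.11 (22 of 30 positive), or 0.02 (17 of 30) without pigs 38, 39 and 46, with C2 at 0.89 (standard error 0.30). Among hepatokines, 7 of 18 genes were positive, with a median of -0.03, or -0.1 without pigs 38, 39 and 46. INHBC of this list, an inhibin beta chain made in the liver, had a value of 0.74 (standard error 0.25). Circadian clock genes had no common sign (8 of 20 positive, median -0.11, or -0.31 without pigs 38, 39 and 46). PER3, a repressor of the clock, had a value of 0.54 (standard error 0.16), ARNTL, its activator, one of -0.77 (standard error 0.27), and CRY1, another repressor, one of -0.56 (standard error 0.24). PER3 was at 13, 18.2 and 23.9 CPM in IUGR treated and 9.91, 13.1 and 18.1 in IUGR untreated piglets, and at 11.6, 14.1 and 19.2 in Normal treated and 10, 16.9 and 19.5 in Normal untreated piglets. The hour at which each liver was taken is not in the labels. None of these genes passed the threshold.

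Genes called only under an alternative are named here after their values were seen. LOC100522267, called by DESeq2 (-7.31, adjusted p = 0.00274) and with no filter (-6.83, adjusted p = 0.00733), was above 0 in 22 libraries, with a highest count of 42 in IUGR untreated pig 38 and 21 in the next library, and was removed by the filter of the test used here. PAPLN, called by voom (-1.13, adjusted p = 0.0234), had an interaction of -0.99 by edgeR (adjusted p = 0.242). PPWD1, called without pigs 38, 39 and 46 (0.66, adjusted p = 0.0191), had one of 0.58 with all libraries (adjusted p = 0.837), and was at 2.62 CPM in the lowest IUGR treated and 3.15 in the lowest IUGR untreated library, against 24.5 or more in Normal untreated piglets.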
